A study of Mus musculus with 4 samples.

Results

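Glucocorticoids signal through the glucocorticoid receptor, a transcription factor that rests in the cytoplasm with Hsp90 and its co-chaperones and moves to the nucleus once hormone is bound, where it induces one set of genes and represses inflammatory genes. The gene set described here holds 6 of the 32285 genes in the deposited matrices. Nr3c1 encodes the receptor itself. Fkbp5 encodes an Hsp90 co-chaperone that lowers the receptor's affinity for hormone and is itself induced by the receptor. Tsc22d3 encodes GILZ, a leucine zipper protein that restrains NF-kB and AP-1. Klf9 encodes a zinc finger transcription factor, Per1 a repressor of the circadian clock, and Sgk1 a kinase that regulates ion channels and transporters. The induced genes are used as readouts of glucocorticoid exposure in leukocytes, although Per1 and Sgk1 also respond to many other stimuli. In the mouse build GRCm38, Fkbp5 spans 28399094 to 28517527 of chromosome 17, Tsc22d3 140539528 to 140600659 of chromosome X, Klf9 23141226 to 23168134 of chromosome 19, Per1 69095217 to 69109960 of chromosome 11 and Sgk1 21882184 to 21999903 of chromosome 10. Fkbp5 and Klf9 overlap other annotated transcripts there, whose reads may not be separable from theirs. The genes were found by their symbols in all 4 matrices, and they were chosen by their levels in these same libraries, with earlier results in view. The levels and ratios of the 6 genes are therefore given as descriptions.

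The study compared leukocytes from the hindpaws of male diabetic mice, Lepr db/db on the C57BLKS/J background (DB), with those of Lepr WT/WT littermates (WT), in mice aged 12 weeks and 21 weeks. The strain is C57BLKS/J-Dock7m +/+ Leprdb, and the labels give the ages as Young and Aged. The db allele removes the long form of the leptin receptor from every tissue, so diabetes, obesity and loss of leptin signalling cannot be told apart. Paws were digested with collagenase, live CD45+ cells were sorted, and 10x 3' libraries were made, 1 for each of the 4 conditions, each from 2 to 3 pooled mice. There is therefore no replicate of any condition, no test between conditions was possible, and every interval below is an exact 95% interval that covers counting error only.

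A level is given in CPM, the UMIs of a gene summed over the barcodes of a class for every 1000000 UMIs of that class. Sets of 4 values give WT and then DB at 12 weeks, followed by WT and then DB at 21 weeks. Barcodes were kept where 200 or more genes were detected and mitochondrial genes took no more than 10% of UMIs, which left 5271, 6552, 7270 and 8707, with median UMIs per barcode between 5355 and 8000.5. Marker gates put 81.7% to 88.5% of them in a class, and each class is called by the cell type whose markers define it. Each of the 13 classes had at least 1 of its own markers and none of another class among its 10 leading genes. Since the gates select on these markers, this is no independent check of the cell types. Only 6 type 1 dendritic cell-like barcodes were present in 21-week-DB, so this class has no ratio that uses that library. The 21-week libraries shared 154 barcodes and the 12-week libraries 41. Without the shared barcodes the log2 ratio of Fkbp5 in macrophage-like barcodes at 21 weeks was 1.99, the same to 2 decimals as with them.

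The promoter windows of 4 of the genes are shown because 3 of them, Fkbp5, Tsc22d3 and Klf9, were higher in macrophage-like barcodes of the 21-week-DB library than in the other libraries while the fourth, Sgk1, was not. Per1 was also highest in that library in these barcodes, by a smaller margin, and its windows are not printed. Each window runs from 250 bases before to 50 bases after a RefSeq start in build GRCm38.p6, and is written 5' to 3' along the gene. Fkbp5 and Klf9 have 1 window each, Tsc22d3 has 3 and Sgk1 has 6. Where a gene has several windows the one with most matches is printed, so a gene with more windows has more chances of a match. Capitals mark the full glucocorticoid response element, which is AGAACA and TGTTCT with any 3 bases between them, the half-sites AGAACA and TGTTCT, and the E-box CACGTG, which clock factors bind. The E-box at the start of the Sgk1 window overlaps a half-site.
Fkbp5, chr17:28486100-28486399, minus strand: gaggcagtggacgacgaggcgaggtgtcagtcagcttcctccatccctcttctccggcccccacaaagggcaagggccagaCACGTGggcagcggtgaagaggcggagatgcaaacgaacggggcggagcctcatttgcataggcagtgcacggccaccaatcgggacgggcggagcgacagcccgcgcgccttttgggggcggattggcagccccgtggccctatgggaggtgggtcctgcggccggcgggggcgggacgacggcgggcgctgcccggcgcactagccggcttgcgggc
Tsc22d3, chrX:140600473-140600772, minus strand: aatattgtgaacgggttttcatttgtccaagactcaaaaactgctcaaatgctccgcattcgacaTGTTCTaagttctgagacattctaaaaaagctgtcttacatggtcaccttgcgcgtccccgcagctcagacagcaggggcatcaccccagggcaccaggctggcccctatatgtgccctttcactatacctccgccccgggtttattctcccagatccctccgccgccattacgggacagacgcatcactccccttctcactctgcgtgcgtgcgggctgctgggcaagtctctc
Klf9, chr19:23140976-23141275, plus strand: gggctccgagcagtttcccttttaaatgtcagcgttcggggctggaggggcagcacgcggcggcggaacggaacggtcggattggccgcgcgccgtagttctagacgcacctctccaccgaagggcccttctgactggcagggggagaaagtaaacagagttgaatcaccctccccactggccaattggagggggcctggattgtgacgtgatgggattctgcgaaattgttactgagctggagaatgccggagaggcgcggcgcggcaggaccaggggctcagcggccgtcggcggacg
Sgk1, chr10:21993640-21993939, plus strand: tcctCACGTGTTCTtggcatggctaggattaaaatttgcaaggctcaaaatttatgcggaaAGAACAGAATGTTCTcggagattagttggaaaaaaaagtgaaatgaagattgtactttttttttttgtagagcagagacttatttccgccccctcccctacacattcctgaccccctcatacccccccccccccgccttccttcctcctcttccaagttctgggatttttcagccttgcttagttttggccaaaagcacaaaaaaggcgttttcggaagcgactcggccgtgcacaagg
The full element was found in the printed Sgk1 window, 189 bases before the start, and in 3 of 32851 mouse promoter windows in all (0.00913%). The other windows of Sgk1 did not hold it. A half-site on either strand was found in 19.0% of all windows and, among the windows printed, in those of Tsc22d3 and Sgk1. Counted by gene, 21.3% had a half-site in at least 1 window. The other windows of Tsc22d3 held no half-site. The E-box was found in 7.15% of all windows, including the window of Fkbp5, the printed window of Sgk1 and 1 of the 2 windows of Per1. The Klf9 window held none of these letters. A match says only that the letters are there, and elements farther from the start lie outside these windows.

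In macrophage-like barcodes, Fkbp5 stood at 19.4 CPM in WT (95% interval 17.3 to 21.7, 303 UMIs) and 49.6 CPM in DB (46.5 to 52.8, 984 UMIs) at 12 weeks. At 21 weeks it stood at 35.5 CPM in WT (32.8 to 38.4, 623 UMIs) and 141 CPM in DB (135 to 147, 1949 UMIs). The 4 intervals did not overlap, and the diabetic library was the higher one at both ages. The DB to WT ratio was 2.55 at 12 weeks (2.24 to 2.91) and 3.96 at 21 weeks (3.62 to 4.34). Of the 12481 genes counted in this class at 12 weeks 120 had a larger ratio, and of the 12272 counted at 21 weeks 145 had. The share of macrophage-like barcodes with at least 1 Fkbp5 UMI was 14.6%, 35.6%, 28.4% and 63.8% in these libraries. With each barcode thinned to 2000 UMIs, which left out 50 to 63 shallower barcodes per library, the shares were 3.77%, 8.39%, 6.02% and 22.8% in the same order of libraries.

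The same gene was also higher in the 21-week-DB library in other myeloid classes. In type 2 dendritic cell-like barcodes Fkbp5 stood at 22.1, 41.6, 20.8 and 111 CPM, a DB to WT ratio of 1.89 at 12 weeks (1.63 to 2.19) and 5.34 at 21 weeks (4.70 to 6.06). In monocyte-like barcodes it stood at 10.5, 18.2, 13.3 and 80.7, with a ratio of 6.05 at 21 weeks (3.58 to 10.5) that rested on 48 UMIs in 21-week-DB. In mast cell-like barcodes it stood at 14.2, 37.1, 28.3 and 59.7, with few UMIs behind both WT levels. The DB to WT ratio there at 21 weeks lay closer to that of gamma-delta T cell-like barcodes than to those of these myeloid classes. The monocyte and type 2 dendritic ratios were the highest of the 9 that could be counted for Fkbp5 at 21 weeks. B cell-like barcodes had too few Fkbp5 UMIs to be counted. They stood at 12.2 CPM in 21-week-WT and 97.7 in 21-week-DB, a wider gap than in monocyte-like barcodes, so large differences were not limited to myeloid classes.

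Most lymphoid classes held more Fkbp5 in the WT libraries than macrophage-like barcodes did and had DB to WT ratios nearer 1, a difference between classes that was not tested. Gamma-delta T cell-like barcodes held 105, 121, 86.2 and 180 CPM, innate lymphoid cell 2-like barcodes 125, 104, 97.8 and 149, and alpha-beta T cell-like barcodes 79.8, 75.6, 61.9 and 101. At 21 weeks the DB to WT ratios were 2.09 (1.89 to 2.32), 1.52 (1.35 to 1.71) and 1.64 (1.42 to 1.89). At 12 weeks they were 1.15 (0.987 to 1.35), 0.833 (0.713 to 0.974) and 0.947 (0.769 to 1.17). The first and the last of these intervals include 1. Dendritic epidermal T cell-like barcodes stayed between 47.2 and 64.9 in all 4 libraries, with intervals that all overlapped.

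Counting classes, a ratio of at least 1.5-fold was called higher, where both libraries had at least 25 barcodes of the class and 30 UMIs of the gene between them. Fkbp5 was called higher in DB in 4 of 9 classes at 12 weeks and in 7 of 9 at 21 weeks, and lower in none. Over all genes and classes counted, 8.01% of pairs were called higher at 12 weeks and 15.2% at 21 weeks. Since the genes were chosen with these contrasts known, nothing is read from the comparison. The 21-week-DB library held the highest Fkbp5 level in 9 of the 10 classes with enough UMIs, with natural killer cell-like barcodes the exception. Over the 4 libraries, Fkbp5 was highest in gamma-delta T cell-like (geometric mean 118) and innate lymphoid cell 2-like barcodes (117) and lowest in monocyte-like barcodes (21.6). All 10 pairs of neighbours in this order overlapped in their ranges over libraries.

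**Figure D1:**
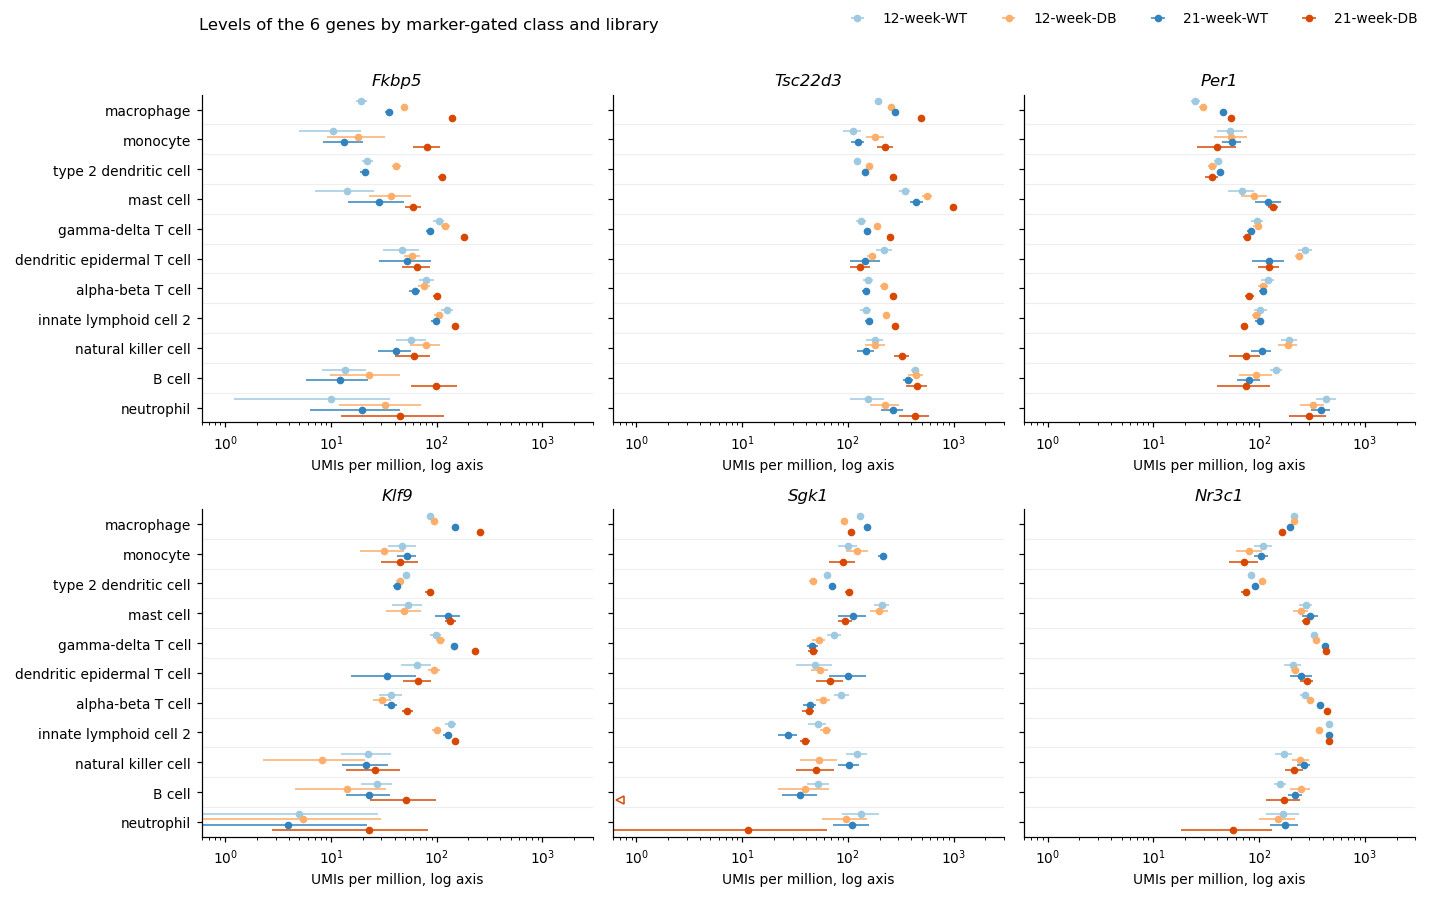
Levels of the 6 genes in counts per 1000000 UMIs (CPM) on a log axis (x) by marker-gated class (y), with 1 point per library and exact 95% Poisson bars that cover counting error only. The open triangle marks a class with 0 UMIs. Type 1 dendritic cell-like barcodes and the fibroblast-like stroma are not drawn. The 21-week-DB points of Fkbp5 lie to the right of the other libraries in macrophage-like (141), type 2 dendritic cell-like (111) and gamma-delta T cell-like barcodes (180).

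Tsc22d3 was higher in the 21-week-DB library in myeloid and lymphoid classes alike. In macrophage-like barcodes it stood at 195, 258, 278 and 497 CPM, and 70.1%, 83.0%, 82.5% and 89.4% of barcodes held a UMI. The DB to WT ratio was 1.32 at 12 weeks (1.27 to 1.38) and 1.79 at 21 weeks (1.73 to 1.86). The level in 12-week-DB and that in 21-week-WT lay close together, and 21-week-DB lay apart above both.

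Across classes, Tsc22d3 was called higher in DB in 3 of 12 classes at 12 weeks and in 9 of 11 at 21 weeks. Of all gene-by-class pairs 8.01% and 15.2% were called higher at these ages. The median Tsc22d3 ratio was 1.42 and 1.79. Mast cell-like barcodes had the highest geometric mean over libraries, with levels of 347, 559, 446 and 982 CPM, a DB to WT ratio of 2.20 at 21 weeks (1.90 to 2.57). Innate lymphoid cell 2-like barcodes held 147, 232, 157 and 280, and natural killer cell-like barcodes 179, 182, 148 and 324. The 21-week-DB library was the highest in 10 of 11 classes. The exception was dendritic epidermal T cell-like barcodes, where it was the lowest, with 220, 169, 146 and 131 in the same order and a ratio of 0.899 at 21 weeks whose interval includes 1 (0.61 to 1.35). In B cell-like barcodes the level lay between 374 and 448 in all 4 libraries, and in 12-week-WT it was above that of mast cell-like barcodes, at 431. All 10 pairs of neighbouring classes overlapped in their Tsc22d3 ranges.

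Klf9 was higher in macrophage-like barcodes of both 21-week libraries. In macrophage-like barcodes it stood at 85.6, 94.9, 148 and 259 CPM. The DB to WT ratio was 1.11 at 12 weeks (1.03 to 1.19) and 1.75 at 21 weeks (1.67 to 1.84), and both 21-week libraries lay above both 12-week libraries. At 21 weeks Klf9 was called higher in DB in 4 of 9 classes, among them type 2 dendritic cell-like barcodes, where it went from 41.8 in WT to 85.7 in DB, and gamma-delta T cell-like barcodes, from 147 to 228. At 12 weeks it was called higher in none and lower in 1 of 9 classes, B cell-like barcodes. Of all gene-by-class pairs 15.2% were called higher at 21 weeks, and 8.01% higher and 8.23% lower at 12 weeks. The fibroblast-like stroma, present with 15 to 27 barcodes per library, held 401 to 935 Klf9 CPM. Fibroblast markers summed to 36.0, 8.67, 12.7 and 4.84 CPM in the macrophage-like barcodes, and thus were highest in the library with the lowest Klf9 level. Keratinocyte markers there summed to 58.0, 10.8, 7.81 and 11.6. Of the 15 markers of other cell types, 9 of 13 counted were called lower and 1 higher in DB at 12 weeks, and 3 of 7 lower and 2 higher at 21 weeks. Of all genes in macrophage-like barcodes 9.25% were called lower and 5.82% higher at 12 weeks, and 8.85% and 15.5% at 21 weeks. The part of these markers in the levels of the 6 genes was not tested.

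Per1 and Sgk1 were not called higher in DB in any class at 21 weeks. In macrophage-like barcodes Per1 stood at 25.01, 29.4, 46.0 and 54.3 CPM, and the DB to WT ratio was 1.18 at both ages (1.03 to 1.34 at 12 weeks and 1.07 to 1.30 at 21 weeks). At 12 weeks 1 of 12 classes was called higher for Per1 and 1 lower, beside 8.01% and 8.23% of all gene-by-class pairs. No class was called higher or lower for Per1 at 21 weeks, out of 11, beside 15.2% and 14.7% of all gene-by-class pairs. Its ratio was below 1 in innate lymphoid cell 2-like (0.719, 0.633 to 0.818) and alpha-beta T cell-like barcodes (0.746, 0.655 to 0.849). The 21-week-DB library held the lowest Per1 level in 8 of 11 classes. Neutrophil-like barcodes held the most Per1, 295 to 434 CPM, a range that did not overlap that of the next class.

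Sgk1 was lower in DB over all macrophage-like barcodes at both ages. It stood at 131, 91.9, 151 and 106 CPM, a ratio of 0.7003 at 12 weeks (0.657 to 0.746) and 0.705 at 21 weeks (0.661 to 0.752), short of the 1.5-fold mark. Within subsets the 12-week ratio was 0.584 in barcodes with 10000 UMIs or more, 0.9695 with 5000 to 10000 and 1.18 with under 5000. The direction thus turned in the shallowest barcodes, where 92 UMIs in WT and 82 in DB gave overlapping intervals. Where the summed class II and other type 2 dendritic cell markers reached 20 per 10000 UMIs the ratio was 0.925 at 12 weeks and 0.918 at 21 weeks. At 21 weeks monocyte-like barcodes held 213 CPM in WT and 89.1 in DB (0.419, 0.307 to 0.560), and natural killer cell-like barcodes from 102 to 50.3 (0.493, 0.302 to 0.782), the 2 of 9 classes called lower. At 12 weeks 1 of 12 was, natural killer cell-like barcodes. Of all gene-by-class pairs 8.23% were called lower at 12 weeks and 14.7% at 21 weeks. Type 2 dendritic cell-like barcodes went the other way at 21 weeks, from 70.1 to 103 (1.47, 1.33 to 1.62). In B cell-like barcodes of 21-week-DB no Sgk1 UMI was counted, which allows up to 17.2 CPM at this depth, against 35.3 in 21-week-WT.

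Nr3c1, the receptor, stayed within 1.5-fold between DB and WT in 10 of 11 classes at 21 weeks. In macrophage-like barcodes it stood at 216, 212, 198 and 165 CPM, a ratio of 0.984 at 12 weeks (0.9401 to 1.03) and 0.834 at 21 weeks (0.790 to 0.879). No class was called higher for Nr3c1 in DB at 21 weeks, and 1 of 11 was called lower, neutrophil-like barcodes, on 5 UMIs in 21-week-DB. At 12 weeks 1 of 12 was called higher, B cell-like barcodes (1.55). Of all gene-by-class pairs 15.2% were called higher and 14.7% lower at 21 weeks, and 8.01% higher at 12 weeks. Innate lymphoid cell 2-like barcodes held the most, 369 to 463. Gamma-delta T cell-like barcodes held 424 at 21 weeks in WT and 430 in DB.

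**Figure D2:**
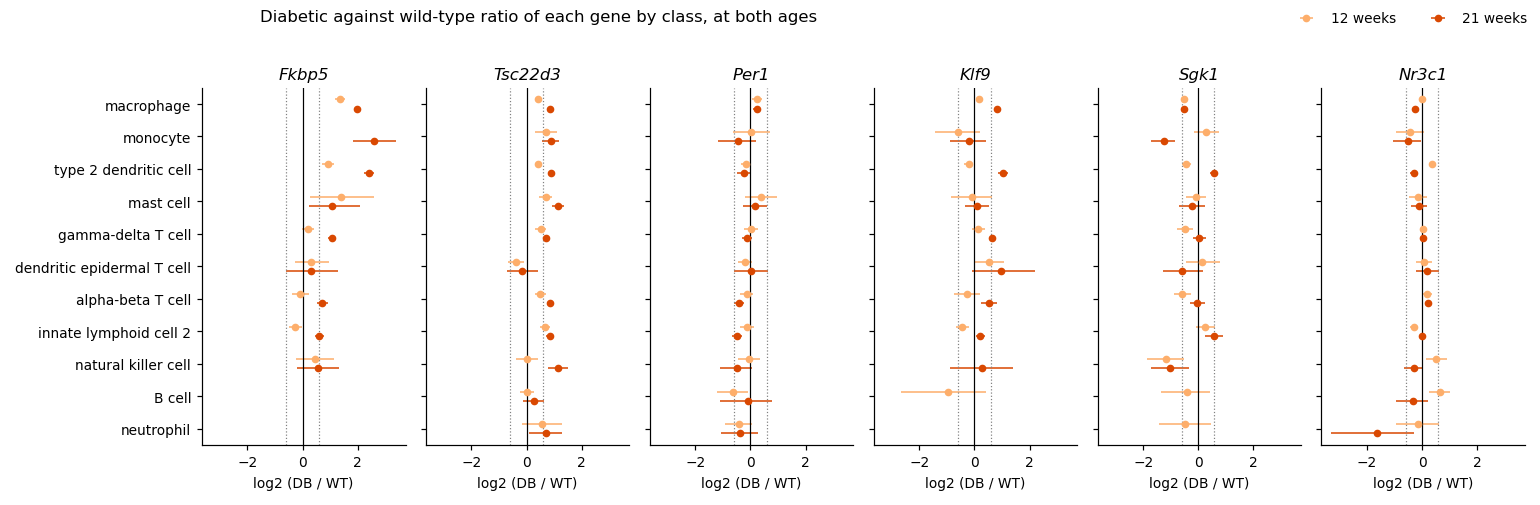
The log2 DB to WT ratio (x) of each gene by class (y) at 12 weeks (light) and 21 weeks (dark), with exact 95% conditional intervals that cover counting error only, a solid line at 0 and dotted lines at 1.5-fold. Classes with too few barcodes or UMIs are not drawn. Type 1 dendritic cell-like barcodes are also left out, although their ratios were counted at 12 weeks. Fkbp5 and Tsc22d3 lie to the right of 0 in macrophage-like barcodes at both ages (log2 1.99 and 0.84 at 21 weeks), whereas Sgk1 lies to the left (-0.51 and -0.50).

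Over the 6 genes, 9 of 66 gene-by-class pairs were called higher and 3 lower in DB at 12 weeks, and 20 of 60 higher and 3 lower at 21 weeks. Fkbp5, Tsc22d3 and Klf9 accounted for all 20 pairs called higher at 21 weeks. In all genes and classes 8.01% of pairs were called higher and 8.23% lower at 12 weeks, and 15.2% and 14.7% at 21 weeks.

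The macrophage-like barcodes were not of 1 kind in the 4 libraries. The median summed class II and other type 2 dendritic cell markers per 10000 UMIs in them were 11.02, 11.06, 34.1 and 1.33, lowest in 21-week-DB. Barcodes with a score of at least 20 made up 42.2%, 44.3%, 54.6% and 14.9%. Fkbp5 was therefore taken within subsets. Where the score was at least 20, Fkbp5 stood at 20.3, 47.0, 30.2 and 120 CPM, and where it was under 20, at 18.9, 51.5, 41.6 and 144. The DB to WT ratio at 21 weeks was 3.96 and 3.47 in these subsets, above 1.5-fold in both. In barcodes with a UMI of Lyve1, a hyaluronan receptor of resident macrophages, the ratio was 3.41, and in those without, 6.07. The 21-week ratio within 3 bands of depth was 3.68 to 5.63. The largest was that of barcodes under 5000 UMIs, which rested on 15 Fkbp5 UMIs in 21-week-WT (29.3 CPM, 16.4 to 48.4).

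Tsc22d3 and Klf9 were also higher in DB at 21 weeks within these subsets. For Tsc22d3 the ratio was 1.91 where the score was at least 20 and 1.52 where it was under 20. For Klf9 it was 1.63 and 1.42, both below the class-wide ratio of 1.75, and the second short of the 1.5-fold mark. In both WT and DB, each of the 2 genes stood at a higher level in the barcodes with the low score, for example 229 against 333 CPM for Tsc22d3 in 21-week-WT. The low-score barcodes made up 57.8%, 55.7%, 45.4% and 85.1%, so their share was lowest in 21-week-WT and highest in 21-week-DB. The part of this makeup in the class-wide ratios of both genes was not tested.

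**Figure D3:**
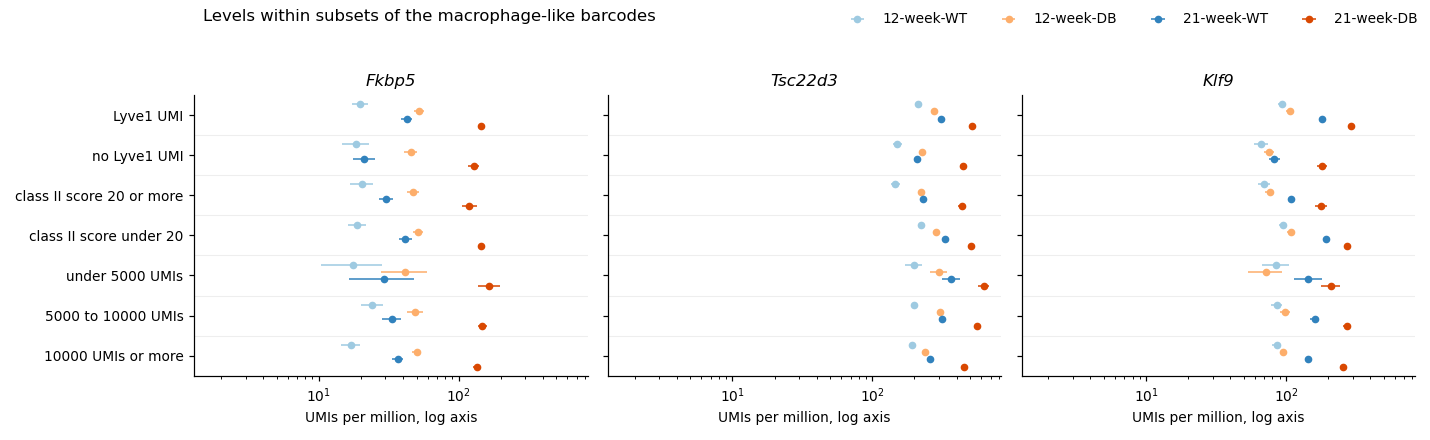
Levels of Fkbp5, Tsc22d3 and Klf9 in counts per 1000000 UMIs (CPM) on a log axis (x) within subsets of the macrophage-like barcodes (y), with exact 95% Poisson bars for counting error. In every subset the 21-week-DB point of Fkbp5 is the highest, for example 120 against 30.2 in 21-week-WT where the class II score was at least 20.

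Levels were also taken over the 11 classes that had at least 25 barcodes in every library, as measured and with class weights held. Nr3c1 stood at 190, 218, 216 and 299 CPM as measured, a DB to WT ratio of 1.39 at 21 weeks. With each class given its weight in 12-week-WT, the levels were 190, 197, 201 and 182, and the ratio was 0.904. For Fkbp5 the measured levels were 34.4, 60.2, 40.9 and 134 and those with held weights 34.4, 54.1, 37.0 and 125, with 21-week ratios of 3.27 and 3.36. The 21-week ratio of Per1 went from 1.10 to 0.942. Hence at 21 weeks the directions of Nr3c1 and Per1 over these classes turned with the class weights and that of Fkbp5 did not. At 12 weeks those of Per1 (1.09 to 0.944) and Klf9 (1.10 to 0.989) turned, and that of Nr3c1 (1.15 to 1.04) did not. Held weights do not cover makeup within a class, and the part of makeup in these ratios was not tested.

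**Figure D4:**
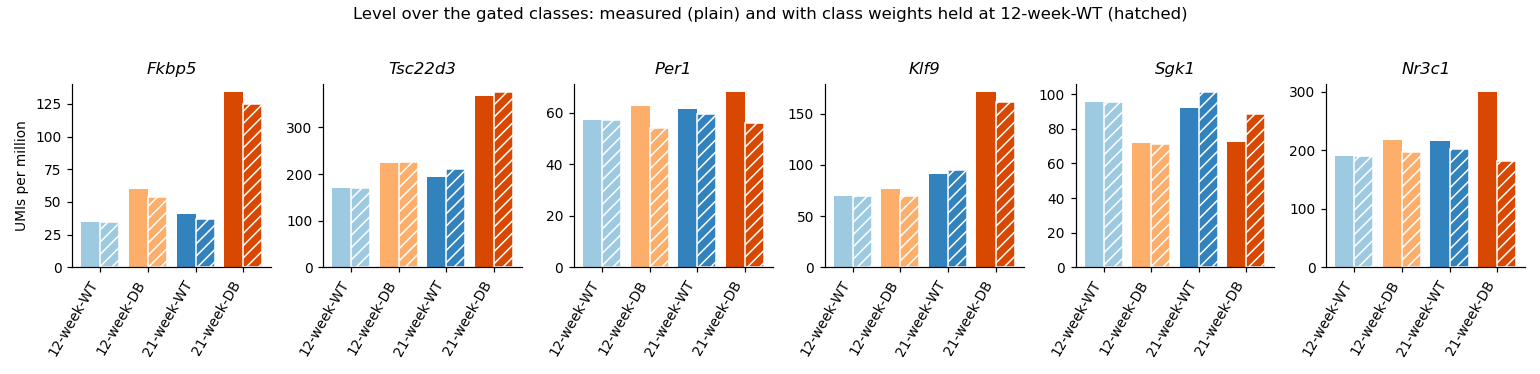
Level of each gene over 11 gated classes in counts per 1000000 UMIs (CPM) (y, from 0) by library (x), as measured (plain bars) and with class weights held at those of 12-week-WT (hatched bars). No error bars are drawn since there is 1 library per condition. The plain Nr3c1 bar of 21-week-DB reaches 299 and the hatched one 182, while both Fkbp5 bars of that library stand above 120.

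With age, in WT, the macrophage-like level went up most in 4 genes, by 1.83-fold for Fkbp5 (1.59 to 2.11), 1.43-fold for Tsc22d3 (1.36 to 1.49), 1.84-fold for Per1 (1.63 to 2.08) and 1.73-fold for Klf9 (1.62 to 1.85). In DB the same ratios were 2.84 (2.63 to 3.07), 1.93 (1.86 to 2.00), 1.85 (1.65 to 2.06) and 2.73 (2.58 to 2.89). Sgk1 went up by 1.15-fold in WT and 1.16-fold in DB. The Nr3c1 ratio was 0.777 in DB and 0.917 in WT, and the latter turned from -0.12 to 0.06 on the log2 scale with median-of-ratios size factors. Over classes, 10 of 67 pairs were called higher and 9 lower with age in WT, beside 6.18% and 15.0% of all pairs, and 17 of 59 higher and 5 lower in DB, beside 10.9% and 21.9%. In WT, Fkbp5 was called higher with age in macrophage-like barcodes alone among 9 classes, and its median ratio over classes was 0.822. The median log2 ratio of all genes counted with age in macrophage-like barcodes was -0.17 in WT and -0.10 in DB, and the files of the 2 ages were made with different Cell Ranger versions, which cannot be told apart from age. The age contrasts share libraries with the DB to WT contrasts.

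Other genes of the pathway were taken from lists in macrophage-like barcodes. The lists were chosen with earlier results of these data known, so their counts and medians are descriptions. Of 24 other genes known to be induced by glucocorticoids, 23 were counted at 21 weeks, of which 9 were called higher in DB and 1 lower, beside 15.5% and 8.85% of all genes in this class. The median log2 ratio of the list was 0.41 and that of all genes 0.07. At 12 weeks 1 of 22 was called higher and 4 lower, beside 5.82% and 9.25% of all genes. Mt1 and Mt2, which encode metal-binding metallothioneins, stood at 367, 368, 329 and 2047 and at 53.5, 62.2, 55.5 and 455 CPM in the 4 libraries, so that only 21-week-DB lay apart. Further induced genes, chosen after their values were seen, were Zbtb16, a transcription factor, which went from 5.65 in WT to 18.3 in DB at 21 weeks, and Ddit4, an inhibitor of mTORC1, from 13.01 to 37.3. Lcn2, an iron-siderophore binding protein, went from 0.627 to 7.01, with 11 UMIs in WT, and Hif3a, which encodes a hypoxia-inducible factor subunit, from 0.342 to 2.74, with 6 UMIs in WT. Il1r2, the decoy receptor of interleukin-1, was the gene called lower, from 19.2 to 10.4, and Dusp1, a phosphatase of MAP kinases, went from 757 to 592.

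Of 16 genes that glucocorticoids are known to repress, 13 were counted at 21 weeks. Of these 5 were called higher in DB and none lower, beside 15.5% and 8.85% of all genes in this class, with a median log2 ratio of 0.45 beside 0.07. The 3 genes with too few UMIs to count, Mmp9, Il12b and Nos2, went from 19 to 0, from 17 to 3 and from 4 to 0 UMIs. The neutrophil chemoattractant Cxcl2 went from 1343 CPM in WT to 3068 in DB at that age, Ccl3 from 247 to 562, Ccl4 from 454 to 859, and the cytokine Il6 from 6.79 to 24.4. At 12 weeks 2 of 14 were called higher and 6 lower, beside 5.82% and 9.25% of all genes, with a median of -0.45 beside 0.01. Ptgs2, the inducible cyclooxygenase, went from 112 to 78.4 at 21 weeks.

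Among genes of the receptor machinery, 1 of 12 counted was called higher and 1 lower in DB at 12 weeks, and 1 higher and none lower at 21 weeks. The shares of all genes in this class called higher and lower were 5.82% and 9.25% at 12 weeks and 15.5% and 8.85% at 21 weeks. The gene called higher at 21 weeks was Hsd11b1, the enzyme that regenerates active glucocorticoid, which went from 1.54 CPM in WT to 10.2 in DB (6.61, 4.36 to 10.4), and at 12 weeks from 1.22 to 2.27. The chaperone gene Hsp90aa1 stood at 557 in 21-week-WT and 676 in 21-week-DB, and the co-chaperone gene Fkbp4, a relative of Fkbp5, at 42.7 and 34.4, both within 1.5-fold. Of 11 paralogs of the 6 genes, read against the same shares, 2 were called higher and 1 lower in DB at 12 weeks. At 21 weeks none was called higher and 1 lower, the Klf9 paralog Klf16, which went from 16.5 to 8.96, while Klf13 went from 178 to 264.

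Clock and early response genes were set beside the 6 because Per1 belongs to the clock and because digestion of tissue induces early response genes. Of 14 clock genes counted, 6 were called higher in DB and 1 lower at 12 weeks, and 3 higher and 1 lower at 21 weeks, with a median log2 ratio of 0.32 and 0.09. Of all genes in this class 5.82% were called higher and 9.25% lower at 12 weeks, and 15.5% and 8.85% at 21 weeks, so the clock counts at 21 weeks lay near these shares. Dbp, an output gene of the clock, stood at 11.3, 30.1, 14.03 and 24.0 CPM and Nr1d1, which encodes REV-ERB alpha, at 21.6, 50.3, 25.2 and 41.5, so both were higher in DB at both ages. Others were lower in DB at 21 weeks, among them Bhlhe40, from 240 to 130, and Per2, from 17.3 to 13.1. Bhlhe41 stood at 49.1, 24.4, 32.7 and 56.1, so its direction turned between the ages. Of 12 early response genes 9 were called lower in DB at 12 weeks and none at 21 weeks, when Atf3 alone was called higher, beside 9.25% of all genes called lower at 12 weeks and 15.5% called higher at 21 weeks. The log2 ratio of Sgk1 over the class was -0.51 and -0.50, and the median log2 ratio of the early response list was -0.76 at 12 weeks and -0.15 at 21 weeks. The part of the hour of collection and of digestion in the levels of the 6 genes was not tested.

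**Figure D5:**
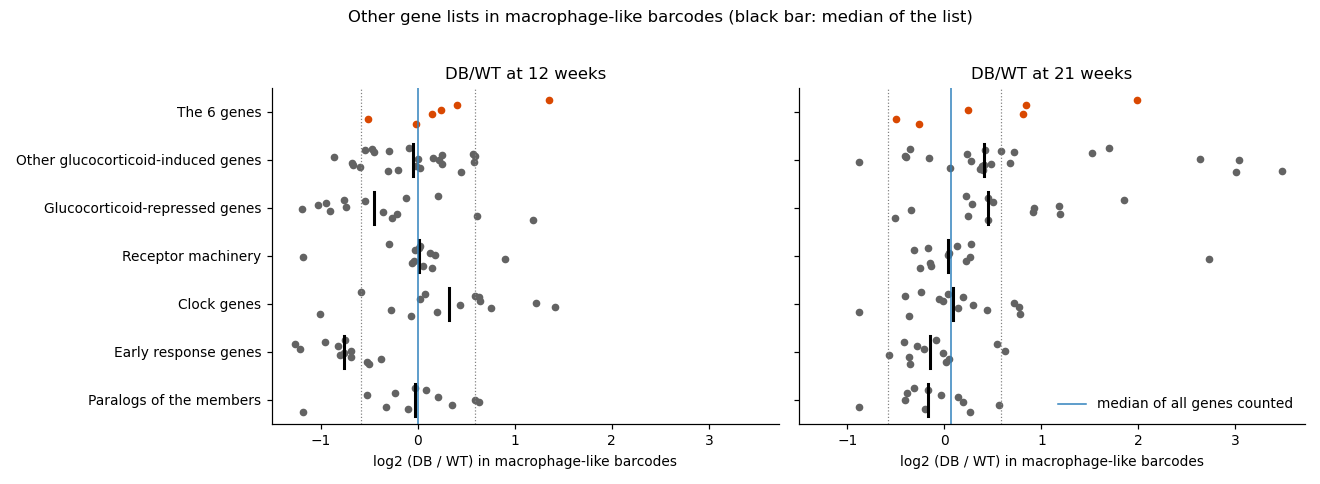
The log2 DB to WT ratio (x) in macrophage-like barcodes of each counted gene (points) of the 6 genes and of 6 lists (y) at 12 and 21 weeks, with the median of each list (black bar), the median of all genes counted (blue line) and dotted lines at 1.5-fold. At 21 weeks 9 of the 23 other induced genes and 5 of the 13 repressed genes lie beyond the right dotted line.

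The genes whose pattern was most like that of Fkbp5 were found over 44 points, 11 classes in 4 libraries, after centring log2 levels within each class, among 10547 genes. They were Ctla2a (Pearson r 0.784), Smim4 (0.782), Fth1 (0.778), Hcst (0.772) and Dnaja1 (0.756). Those like Tsc22d3 included the snoRNA host gene Snhg8 (0.816) and the ribosomal protein genes Rps10 (0.795), Rps28 (0.794) and Rpl24 (0.782). The points share 4 libraries, so these are descriptions of library differences and carry no p-value. Ribosomal protein genes took 10.2%, 11.4%, 12.3% and 16.0% of the UMIs of macrophage-like barcodes in the 4 libraries, and mitochondrial genes 3.73%, 2.88%, 4.09% and 2.34%. With both left out of the denominator the log2 DB to WT ratio of Tsc22d3 at 21 weeks was 0.88 in place of 0.84.

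Within the set, Fkbp5 correlated over the same 44 points with Tsc22d3 (r 0.704) and Klf9 (0.501), and inversely with Sgk1 (-0.542) and Nr3c1 (-0.389). In macrophage-like barcodes thinned to 2000 UMIs, 0.319%, 1.01%, 1.57% and 10.0% held a UMI of both Fkbp5 and Klf9, beside 0.553%, 1.22%, 1.45% and 8.24% for the product of their shares. For this pair the share with both was thus below the product in the 12-week libraries and above it in the 21-week libraries. The other pairs did not follow this order. The share with both over the product was 1.08, 1.09, 0.974 and 1.07 for Fkbp5 with Tsc22d3. For Tsc22d3 with Klf9 it was 1.11, 1.06, 1.06 and 1.04. Few 12-week barcodes held both Fkbp5 and Klf9, no interval was taken, and no difference between libraries was tested. Free RNA can give UMIs to any droplet. In 21-week-DB the share of mast cell-like barcodes with an Fkbp5 UMI was 9.23%, at a median of 1402 UMIs, and that of macrophage-like barcodes 63.8%, at a median of 8799. With 10% of the library's mean profile subtracted from each class, the log2 DB to WT ratio of Fkbp5 in macrophage-like barcodes at 21 weeks was 2.01.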

How the data were processed

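CD45+ hindpaw leukocytes were measured by droplet single-cell RNA-seq in 4 libraries, 1 per condition. The authors deposited raw UMI counts per gene and barcode, aligned to mm10 with Cell Ranger, version 5.0.0 for the 12-week files and 6.0.0 for the 21-week files per the file headers. No normalization, ambient removal or filter on mitochondrial UMIs had been applied. Libraries were assigned from their titles, and the weeks come from the study's methods.

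The 6 genes, the gene lists and the markers were chosen with earlier results of these data known. Gate thresholds, the class II split and the bands of depth were set after marker scores had been seen. A barcode met a gate when the class's markers reached a minimum share of its UMIs and a minimum number of them was detected. Barcodes that met more than 1 gate (952 in all) were left out, which also served against doublets, and 3324 met none. No doublet caller was run.

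Counts were summed per class and library (numpy 2.4.6, pandas 2.3.3), with exact Poisson, binomial and conditional binomial 95% intervals (scipy 1.17.1). Called ratios were at least 1.5-fold, with 30 UMIs over both libraries and 25 barcodes in each. The floor for a class with no UMI was 3 counts. Ratios and their calls were run on simulated macrophage-like sums that held counting error only. This checks the calculation, and covers neither the spread between mice nor classes with few UMIs. Named genes were the 6, up to 4 of each list with the largest and 4 with the smallest 21-week ratio, and the 5 genes most like Fkbp5 and Tsc22d3, of which 1 is not reported here. Promoters came from RefSeq, and 5 of the 6 genes had a window. A total of 14 alternative settings was run.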

Additional observations from a re-analysis of the deposited data

Results flagged for a closer look

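In 5 cases a gene's DB to WT ratio lay on opposite sides of 1 at the 2 ages within a class, with intervals for counting error that did not reach 1 at either age. With 1 library per condition, the difference between ages was not tested. In innate lymphoid cell 2-like barcodes the ratio of Fkbp5 was 0.833 at 12 weeks and 1.52 at 21 weeks, and that of Klf9 was 0.741 and 1.16. Erythroid markers in this class summed to 129, 73.1, 49.2 and 26.5 CPM, and their part in these ratios was not tested. In type 2 dendritic cell-like barcodes the ratio of Klf9 was 0.867 at 12 weeks and 2.05 at 21 weeks, that of Sgk1 was 0.743 and 1.47, and that of Nr3c1 went the other way, from 1.28 to 0.813. The barcodes that met no gate, which no comparison between classes used, also held Fkbp5. Its level there was 161 CPM in 21-week-DB, beside 45.3 in 12-week-WT, 68.9 in 12-week-DB and 56.6 in 21-week-WT.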

How the results depend on the processing

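With a 2-fold in place of a 1.5-fold mark, the pairs called higher were 2 for DB to WT at 12 weeks, 8 at 21 weeks, 3 for age in WT and 7 for age in DB, since the mark is stricter. Under the other 13 settings each of these counts stayed within 1.5 times its value. The Fkbp5 log2 ratio in macrophage-like barcodes at 21 weeks lay between 1.89 and 2.09 under 11 settings. Of 253 alternative values of the other 23 macrophage ratios, 250 kept their sign and 34 lay outside the counting interval. Of 56 alternative counts of pairs called lower, 15 moved by over 1.5 times. The setting without shared barcodes was chosen after seeing the data. No paired analysis was possible because each condition has 1 library. Depth limits classes such as monocyte-like, B cell-like and neutrophil-like barcodes, where ratios rest on few UMIs, and no setting measures the spread between mice.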
